A study of Oryctolagus cuniculus with 6 samples.

Results

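The Toll-like receptors (TLRs) and AIM2, receptors of innate immunity, were followed by their gene symbols in RNA-seq counts of the injured rabbit facial nerve. The 10 genes were 6 receptors of the cell surface (TLR1, TLR2, TLR4, TLR5, TLR6 and TLR10) and 4 sensors of nucleic acid (TLR3, TLR8, TLR9 and AIM2). Of these 10 genes, 8 were analysed here among the 17396 genes of the count tables, and all 8 passed the filter on low counts that left 14003 genes for testing. TLR8, a pseudogene in RefSeq's annotation of the rabbit assembly mOryCun1.1, and AIM2 were not analysed here. The nucleic acid sensors below are therefore TLR3 and TLR9.

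The libraries came from wild-type male Japanese white rabbits aged 3 to 4 months, whose facial nerve trunk had been transected, and the injured nerve tissue was taken on day 14. In the FNI group (facial nerve injury, 3 libraries) no seed was placed, and in the FNI+I-125 group (3 libraries) a radioactive I-125 seed was also implanted near the injured nerve. The methods describe no inactive seed in the FNI group, so the implant and its radiation cannot be told apart. The methods give 3 rabbits a group for sequencing but the labels tie no library to an animal, so p-values measure only the spread between these libraries, which may be technical in part.

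Each TLR reads a class of microbial or damaged-cell molecules through its outer domain and signals through an inner TIR domain that recruits adaptor proteins. Surface receptors mostly read lipids and proteins, whereas TLR3, TLR8 and TLR9 read nucleic acid inside endosomes, and AIM2 binds double-stranded DNA in the cytosol and builds an inflammasome. In an injured nerve, Schwann cells and incoming macrophages carry TLRs, and TLR2 and TLR4 are known for reading debris of the degenerating nerve.

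Total counts ran from 16031151 to 16798012 per library. All values per library below are CPM (counts scaled to a common library total) after TMM scaling, which sets one library's composition against another's, and the change is the log2 fold change of FNI+I-125 over FNI. CPM is not corrected for gene length, so levels were compared between libraries and not between genes. Tissue composition differed between libraries within a group: the summed CPM of 4 skeletal muscle markers ran from 62.6 to 139 in FNI and from 42.9 to 3102 in FNI+I-125, that of 4 salivary gland markers from 23.2 to 49683 and from 19.0 to 651, and that of 5 keratinocyte markers from 13.3 to 653 and from 16.3 to 1056. The 8 Schwann cell markers, led by the myelin genes PMP22 and PRX, summed to 1668 to 12760 in FNI and 402 to 1456 in FNI+I-125, without overlap, so nerve transcripts were present in every library at unequal amounts.

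No receptor passed the adjusted threshold. In edgeR's quasi-likelihood test, adjusted by Benjamini-Hochberg across the 14003 genes, 0 of the 8 receptors had both an adjusted p under 0.05 and an absolute log2 fold change of 1.5 or more, as had 0% of all genes tested. DESeq2, with the same thresholds, called 0 of the 8 against 3.23% of its genes. At an unadjusted p under 0.05, 1 of the 8 was higher in FNI+I-125 (TLR6), where 9.23% of all genes tested were, and 0 were lower, where 7.73% were. The fold changes of 7 of the 8 receptors were above 0, as were 51.1% of all genes tested, whose median was 0.01. The receptors were chosen with earlier results of these data known, so these shares are description only.

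TLR2 forms dimers with TLR1 or TLR6 to bind bacterial lipopeptides. TLR2 had 15.8, 17.0 and 6.62 CPM in FNI replicates 1 to 3, and 23.5, 21.4 and 20.3 CPM in FNI+I-125 replicates 1 to 3. The groups did not overlap, and the widest gap inside a group was between FNI replicate 3 and the other FNI libraries. The means were 13.1 ± 5.68 CPM (SD, n = 3) and 21.7 ± 1.61 CPM (SD, n = 3), and the log2 fold change was 0.72 (SE 0.36) with an adjusted p of 0.336, or 0.39 without FNI replicate 3. The exact two-sided permutation test of the 6 libraries gave p = 0.1, the smallest that 3 against 3 allow.

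TLR1 had 8.90, 15.2 and 4.37 CPM in FNI, and 17.1, 19.5 and 14.3 CPM in FNI+I-125. FNI replicate 2 lay above FNI+I-125 replicate 3, so the groups overlapped. Its log2 fold change was 0.84 (SE 0.45, adjusted p = 0.351), from means of 9.49 ± 5.43 and 17.0 ± 2.61 CPM (SD, n = 3 each). Without FNI replicate 3, the lowest library, the change was 0.48, and without FNI replicate 2, the highest of its group, it was 1.35, with an unadjusted p of 0.0161 in edgeR.

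TLR6, the other partner of TLR2, had 4.69, 6.11 and 7.03 CPM in FNI, and 11.8, 8.40 and 9.04 CPM in FNI+I-125. All 3 FNI+I-125 libraries lay above all 3 FNI libraries. The means were 5.94 ± 1.18 and 9.76 ± 1.82 CPM (SD, n = 3 each), and the log2 fold change of 0.71 (SE 0.25, 95% interval 0.10 to 1.33) had an adjusted p of 0.280. Its p before adjustment was 0.0295 in edgeR, and the exact permutation test gave p = 0.1. Leaving out 1 library at a time kept the change between 0.55 and 0.83, and p passed the unadjusted threshold in 2 of the 6 fits, those without FNI replicate 3 and without FNI+I-125 replicate 2. With the replicate number as a block, p before adjustment was 0.0773 and TLR6 was no longer under the threshold.

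TLR10, a close relative of TLR1 and TLR6 whose ligands are not well defined, had 2.52, 3.53 and 0.53 CPM in FNI, and 7.84, 1.89 and 2.88 CPM in FNI+I-125. FNI+I-125 replicate 1 was high and the other 2 libraries of that group lay within the FNI range. FNI replicate 3 held 9 counts, for which counting error alone gives a 95% Poisson interval of 4.12 to 17.1 counts. The log2 fold change was 0.94 (SE 0.82, adjusted p = 0.544), and it was 0.12 without FNI+I-125 replicate 1, 0.45 without FNI replicate 3 and 1.45 without FNI replicate 2. In mOryCun1.1, TLR10, TLR1 and TLR6 stand next to each other on chromosome 2, and as the handling of reads shared by close relatives is not given in the sources used here, the values of these 3 genes are uncertain to that extent.

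TLR4 reads bacterial lipopolysaccharide together with the secreted protein LY96 and the co-receptor CD14. It had 48.7, 51.8 and 30.3 CPM in FNI, and 106, 60.8 and 51.8 CPM in FNI+I-125. The lowest FNI+I-125 library stood just below the highest FNI library, so the groups overlapped, and FNI+I-125 replicate 1 stood apart above its group. The means were 43.6 ± 11.7 and 73.0 ± 29.3 CPM (SD, n = 3 each), with a log2 fold change of 0.74 (SE 0.34, 95% interval -0.09 to 1.58) and an adjusted p of 0.316. Without FNI+I-125 replicate 1 the change was 0.37.

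TLR5, which reads bacterial flagellin, was the one receptor with a negative value. It had 23.0, 15.7 and 7.92 CPM in FNI, and 14.8, 4.93 and 12.2 CPM in FNI+I-125. FNI+I-125 replicates 1 and 3 lay within the FNI range and replicate 2 below it, so the groups overlapped. The log2 fold change was -0.54 (SE 0.53, 95% interval -1.85 to 0.76) with an adjusted p of 0.590, and the change ran from -0.88 without FNI replicate 3 to -0.15 without FNI replicate 1 when 1 library was left out.

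**Figure D1:**
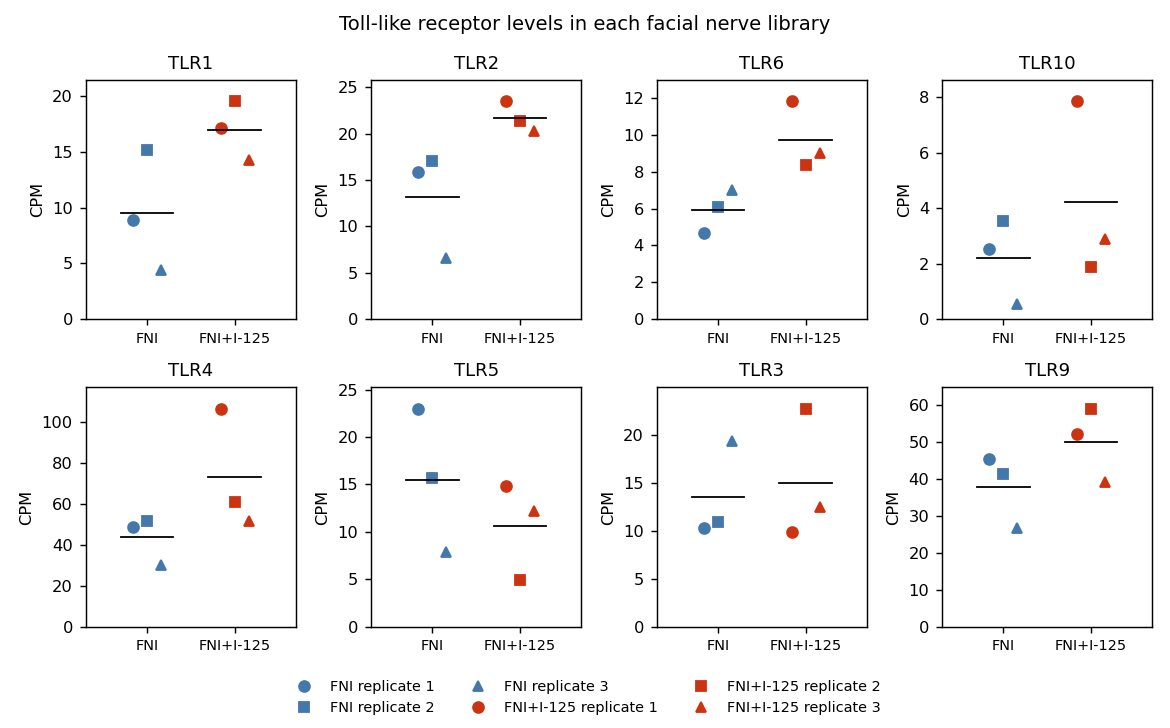
CPM of the 8 receptors in each library, one panel per gene and each axis starting at 0, with points for the 3 FNI and 3 FNI+I-125 libraries and a black line at the group mean. TLR2 and TLR6 are the panels in which all FNI+I-125 points lie above all FNI points.

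TLR9 reads DNA rich in unmethylated CpG. It had 45.4, 41.3 and 26.7 CPM in FNI, and 52.2, 59.0 and 39.3 CPM in FNI+I-125. The groups overlapped, since FNI+I-125 replicate 3 lay below FNI replicates 1 and 2. The means were 37.8 ± 9.81 and 50.2 ± 9.98 CPM (SD, n = 3 each). This gave a change of 0.41 on the log2 scale (SE 0.25, adjusted p = 0.406), which was 0.19 without FNI replicate 3 and 0.25 without FNI+I-125 replicate 2.

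TLR3, the receptor for double-stranded RNA, had 10.2, 10.9 and 19.4 CPM in FNI, and 9.87, 22.7 and 12.5 CPM in FNI+I-125. One library in each group, FNI replicate 3 and FNI+I-125 replicate 2, held the high values, and the groups overlapped throughout. The log2 fold change was 0.15 (SE 0.41, 95% interval -0.84 to 1.15) with an adjusted p of 0.855. It became -0.30 without FNI+I-125 replicate 2 and 0.49 without FNI replicate 3, so its direction rested on single libraries.

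**Figure D2:**
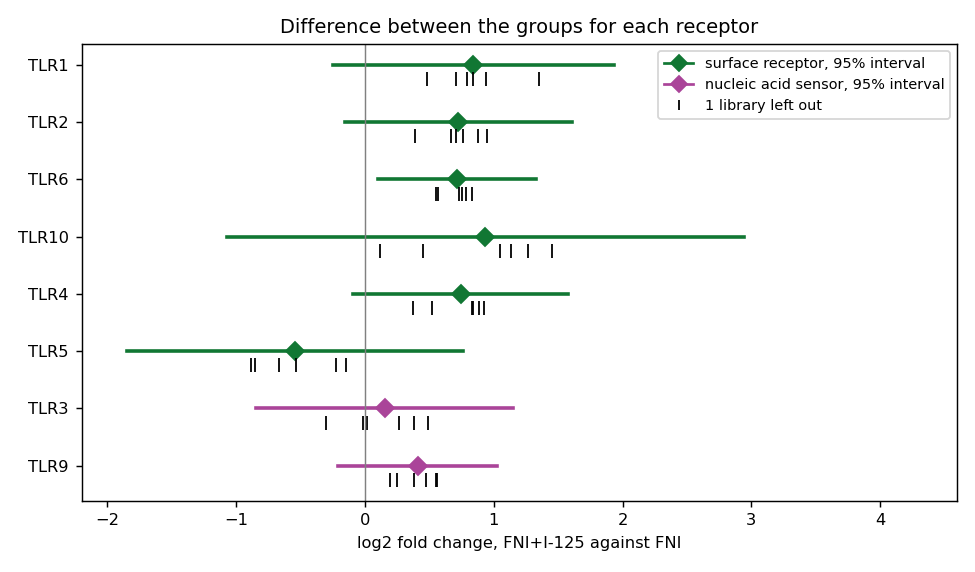
Log2 fold change of FNI+I-125 over FNI for each of the 8 receptors (diamonds) with the 95% interval of the edgeR fit, and ticks for the same value with 1 library left out. Intervals of 7 of the 8 receptors include 0, and that of TLR6 runs from 0.10 to 1.33.

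Whether surface receptors and nucleic acid sensors differed was compared through their fold changes and their levels in each library. The median log2 fold change was 0.73 over the 6 surface receptors and 0.28 over TLR3 and TLR9, a difference of 0.45. That difference rested on single libraries: it was 0.08 without FNI+I-125 replicate 1, 0.12 without FNI replicate 3 and 0.77 without FNI+I-125 replicate 2. With 1 library left out, the surface median ran from 0.46 to 0.92 and the median of TLR3 and TLR9 from -0.02 to 0.41. The mean log2(CPM + 1) of the surface receptors was 3.65, 3.83 and 2.85 in FNI and 4.39, 3.69 and 3.85 in FNI+I-125. FNI replicate 3 was the lowest and FNI+I-125 replicate 1 the highest, and the groups overlapped. The mean of TLR3 and TLR9 was 4.51, 4.49 and 4.57 in FNI, and 4.59, 5.24 and 4.54 in FNI+I-125, where FNI+I-125 replicate 2 was the library set apart. Subtracted within each library, surface minus sensors was -0.86, -0.66 and -1.72 in FNI, and -0.20, -1.55 and -0.70 in FNI+I-125. These values overlapped, and their group means differed by 0.27 against a pooled SD of 0.627, so a different response of the 2 classes was not detectable with 3 libraries a group.

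**Figure D3:**
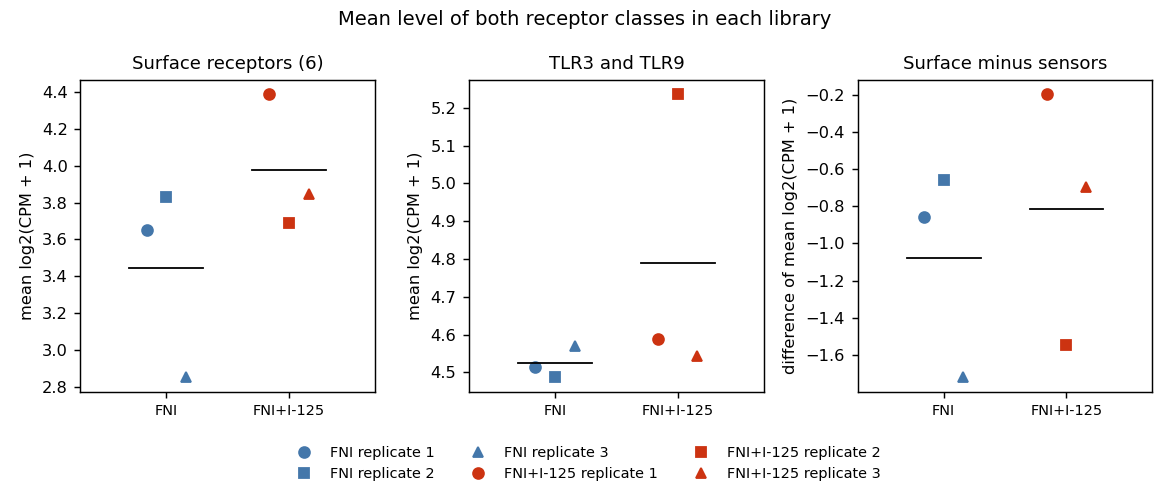
Mean log2(CPM + 1) in each library of the 6 surface receptors, of TLR3 and TLR9, and the difference of the 2 means. The FNI and FNI+I-125 points overlap in each panel.

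The libraries were not alike in their rank across receptors. FNI replicate 3 was the lowest of the 6 libraries for 5 of the 8 receptors (TLR1, TLR2, TLR4, TLR9 and TLR10). FNI+I-125 replicate 1 was the highest for 4 receptors, all of the surface class (TLR2, TLR4, TLR6 and TLR10), and FNI+I-125 replicate 2 for 3 (TLR1, TLR3 and TLR9). Not overlapping, as a count, held for 2 of the 8 receptors with FNI+I-125 higher, TLR2 and TLR6, where 14.8% of all genes tested did so, and for 0 of the 8 with FNI+I-125 lower, where 12.3% did. TLR2 is overlapped by RNF175 and a long noncoding RNA in mOryCun1.1, and the strand setting of the counting is not given in the sources used here. RNF175 itself had 3 to 29 counts per library.

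Cell type markers also differed between the groups, in both directions. The marker lists were chosen with earlier results of these data known, so the shares beside them are description only. The Schwann cell sums given above were lower in FNI+I-125, and the highest, 12760, stood in FNI replicate 3. All 8 fold changes were below 0, where 51.1% of all genes tested were above 0. Of the 8 markers, 3 were lower at an unadjusted p under 0.05, against 7.73% of all genes tested. Lower without overlap were 4 of the 8, against 12.3%, and PMP22, which helped lead the sum, overlapped. The summed CPM of 8 macrophage markers, led by the receptor CSF1R and the lysosomal protein CD68, was 535, 690 and 185 in FNI, and 1011, 1248 and 901 in FNI+I-125. The groups did not overlap, and the lowest library was again FNI replicate 3. Of the 7 macrophage markers tested, 7 had fold changes above 0, against 51.1% of all genes tested, and 2 were higher at an unadjusted p under 0.05, against 9.23%. The summed CPM of 7 neutrophil markers, led by S100A9 and CSF3R, was 105, 31.0 and 6.91 in FNI, and 1465, 37.4 and 129 in FNI+I-125. FNI+I-125 replicate 1, the highest library for 4 of the surface receptors, held the large value. The same library also had a high skeletal muscle sum, 2983, as had FNI+I-125 replicate 2, 3102. The sums of the dendritic cell markers ran from 15.2 to 28.5 in FNI and from 27.4 to 51.0 in FNI+I-125, of the T cell markers from 1.60 to 14.0 and from 10.9 to 37.4, of the B cell markers from 5.45 to 10.1 and from 7.36 to 15.7, of the endothelial markers from 2244 to 2809 and from 1762 to 2840, and of the fibroblast markers from 68975 to 137880 and from 98124 to 189250. No marker on these lists was at 0 in all libraries. In bulk tissue, fewer cells of a type and less RNA per cell cannot be told apart, and the part of these cell types in the receptors' values was not tested.

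**Figure D4:**
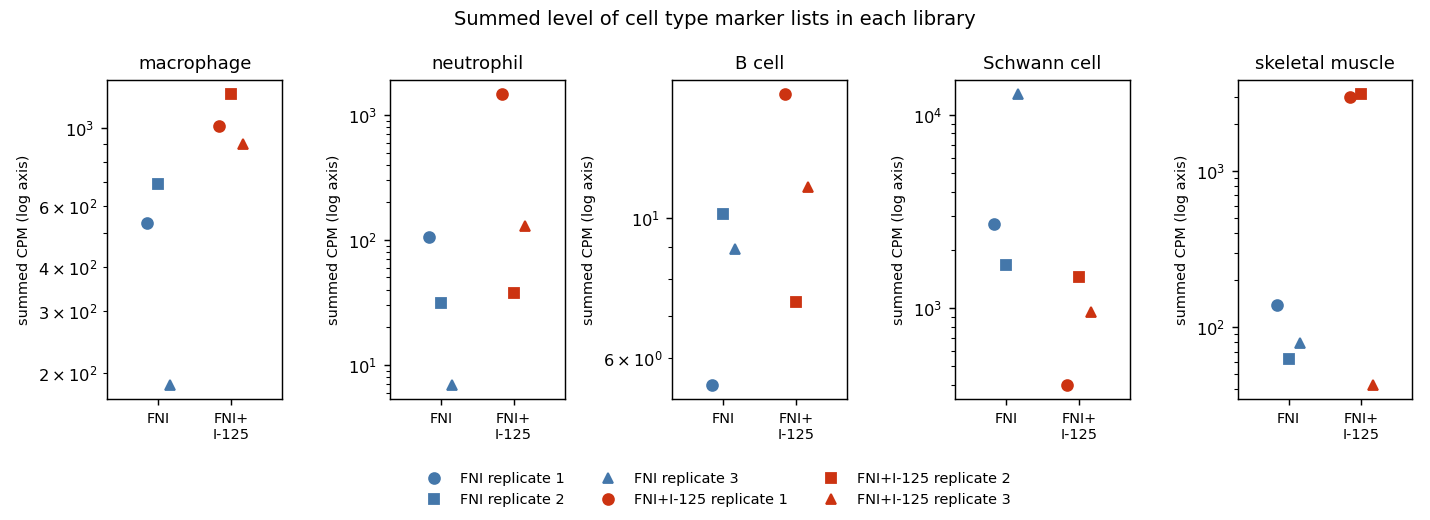
Summed CPM of the macrophage, neutrophil, B cell, Schwann cell and skeletal muscle markers in each library, on log axes, with points for FNI and FNI+I-125. The macrophage sums of the 3 FNI+I-125 libraries, from 901 to 1248, lie above those of the 3 FNI libraries.

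Each receptor was also set against the macrophage sum of its library, which is itself higher in FNI+I-125 and so lowers the ratio of most genes. The ratio was lower in FNI+I-125 without overlap for 67.2% of all genes tested, and for 3 of the 8 receptors. The log2 ratio of TLR5 to the macrophage sum ran from -5.46 to -4.54 in FNI and from -7.98 to -6.09 in FNI+I-125, without overlap. That of TLR2 ran from -5.34 to -4.80 and from -5.87 to -5.43, also without overlap and lower in FNI+I-125. That of TLR9 ran from -4.07 to -2.79 and from -4.52 to -4.28, likewise lower. The ratios of TLR1, TLR3, TLR4, TLR6 and TLR10 overlapped between groups. The fold change of TLR5 was also below 0 before the division (-0.54, SE 0.53), but its values overlapped between the groups. These ratios were formed after the values were seen and carry no test.

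The wider TLR pathway was followed through 85 genes in 8 lists, of which 75 were tested. These lists were chosen with earlier results of these data known. The shares of all genes given beside their counts, here and list by list below, are therefore description and not a test of the pathway. Of these, 61 had a fold change above 0 (81.3%, against 51.1% of all genes tested), with a median of 0.49. At an unadjusted p under 0.05, 19 of the 75 were higher, against 9.23% of all genes tested, and 1 was lower, against 7.73%, and 0 had an adjusted p under 0.05. DESeq2 put 32 of 75 higher at an unadjusted p under 0.05, against 11.6% of its genes, and 1 lower, against 10.6%. Without FNI+I-125 replicate 1 the edgeR counts were 9 higher and 1 lower. Over all genes tested, the calls in both directions also fell in that fit, from 2375 to 1392.

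Among 10 co-receptor and trafficking genes, 8 were above 0, 5 were higher without overlap between groups, as were 14.8% of all genes tested, and 0 passed the unadjusted threshold, with a median log2 fold change of 0.94. CD14, which hands lipopolysaccharide to TLR4, had 82.3, 106 and 15.4 CPM in FNI, and 216, 266 and 153 CPM in FNI+I-125. All 3 FNI+I-125 libraries were higher, and the log2 fold change was 1.64 (SE 0.67, adjusted p = 0.295). LY96, the partner of TLR4, had a log2 fold change of 1.09 (SE 0.49, adjusted p = 0.314), without overlap. That of LBP, the plasma protein that binds lipopolysaccharide, was 1.25 (SE 0.53, adjusted p = 0.303). The LBP values overlapped, with 17.0 CPM in FNI replicate 1 and 12.5 CPM in FNI+I-125 replicate 3. UNC93B1, which brings TLR3 and TLR9 to endosomes, had 41.3, 45.9 and 18.8 CPM in FNI, and 66.3, 64.3 and 52.4 CPM in FNI+I-125.

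Of 5 adaptors tested, 4 were above 0 and 2 were higher at an unadjusted p under 0.05, against 9.23% of all genes tested. TICAM2, which links TLR4 to the adaptor TICAM1, had 3.10, 3.40 and 3.43 CPM in FNI, and 9.41, 6.57 and 7.81 CPM in FNI+I-125. Its log2 fold change was 1.26 (SE 0.23, adjusted p = 0.280), with no overlap. MYD88, the adaptor of most TLRs but not of TLR3, had 62.3, 60.1 and 40.2 CPM in FNI, and 88.1, 82.9 and 70.9 CPM in FNI+I-125. Its log2 fold change was 0.57 (SE 0.20, adjusted p = 0.280), also with no overlap. TICAM1, the adaptor of TLR3, was not analysed here, and TIRAP, which bridges MYD88 to TLR2 and TLR4, had a log2 fold change of 0.48 (SE 0.28).

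Below the adaptors, 16 kinases and ubiquitin ligases had a median log2 fold change of 0.22. At an unadjusted p under 0.05, 2 of the 16 were higher and 1 lower, near the 9.23% and 7.73% of all genes tested. The higher were IRAK1 (0.67, SE 0.24) and IRAK2 (0.77, SE 0.27), kinases that MYD88 recruits. PELI2, a ubiquitin ligase that acts on IRAK1, was the lower one, with 28.7, 32.4 and 47.9 CPM in FNI, and 19.8, 20.4 and 21.4 CPM in FNI+I-125, without overlap. Its log2 fold change was -0.82 (SE 0.22, adjusted p = 0.280). Of 7 transcription factors, 2 were higher at the same threshold, IRF5 and NFKB1, against 9.23% of all genes tested. IRF5 had 37.2, 45.7 and 8.81 CPM in FNI, and 81.7, 123 and 86.0 CPM in FNI+I-125. NFKB1 had a log2 fold change of 0.44 (SE 0.18). REL had a log2 fold change of 0.97 (SE 0.43) and did not pass.

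Of 11 inhibitors of TLR signalling, 10 were above 0. At an unadjusted p under 0.05, 3 were higher, against 9.23% of all genes tested. TNIP1, which holds back NF-kB, had a log2 fold change of 0.59 (SE 0.12), TNIP3 of 2.98 (SE 0.83) and the phosphatase DUSP1 of 1.34 (SE 0.54). The DUSP1 values overlapped between groups, and TNIP3 held only 5, 11 and 3 counts in FNI. Both were highest in FNI+I-125 replicate 1. In FNI+I-125, TNIP3 had 6.1, 1.6 and 1.6 CPM, and DUSP1 had 377, 101 and 137 CPM.

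Of 8 inflammasome genes, the pathway that AIM2 feeds, 3 were higher at an unadjusted p under 0.05 (MEFV, GSDMD and IL1B) and 0 were lower. Over all genes tested, 9.23% were higher and 7.73% lower at that threshold. MEFV held only 8, 3 and 2 counts in FNI. GSDMD, the pore that inflammasome caspases cut, had 9.96, 10.5 and 4.55 CPM in FNI, and 26.1, 19.1 and 14.9 CPM in FNI+I-125. IL1B, cut by the same caspases, had 2.28, 3.02 and 0.71 CPM in FNI, and 343, 4.02 and 16.4 CPM in FNI+I-125. The high IL1B value stood in FNI+I-125 replicate 1, the library with the large neutrophil sum and also a high skeletal muscle sum. The source of its IL1B was not tested. CASP1, the caspase itself, had a log2 fold change of 1.41 (SE 0.61, adjusted p = 0.307) with overlapping groups, and its adaptor PYCARD was not analysed here.

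Of 9 other sensors of nucleic acid and their enzymes, 8 were above 0. At an unadjusted p under 0.05, 3 were higher, against 9.23% of all genes tested. TREX1, which degrades cytosolic DNA, had a log2 fold change of 0.61 (SE 0.16), IFIH1, a sensor of double-stranded RNA, of 0.97 (SE 0.31), and STING1, which relays DNA sensing, of 0.96 (SE 0.34), with overlap for STING1 alone of these 3. CGAS, the enzyme that senses DNA for STING1, had 2.05, 1.64 and 0.47 CPM in FNI, and 2.22, 2.98 and 2.76 CPM in FNI+I-125. Its log2 fold change was 0.93 (SE 0.56, adjusted p = 0.398).

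Of 9 target genes of TLR signalling tested, 4 were higher at an unadjusted p under 0.05, against 9.23% of all genes tested. The median log2 fold change over the list was 2.27, the value of PTGS2. PTGS2 had 5.51, 7.12 and 8.57 CPM in FNI, and 69.7, 7.36 and 25.6 CPM in FNI+I-125, with overlap. TNF, a leading cytokine of these receptors, had 0.35, 1.39 and 0.12 CPM in FNI, and 5.88, 5.96 and 3.17 CPM in FNI+I-125, without overlap. The FNI values of TNF stood on only 6, 22 and 2 counts. CXCL8, a neutrophil attractant, had 2.17, 2.08 and 1.18 CPM in FNI, and 435, 12.2 and 28.1 CPM in FNI+I-125. CCL4 had a log2 fold change of 5.25 (SE 1.08, adjusted p = 0.280), and its highest library was FNI+I-125 replicate 1 at 89.6 CPM.

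**Figure D5:**
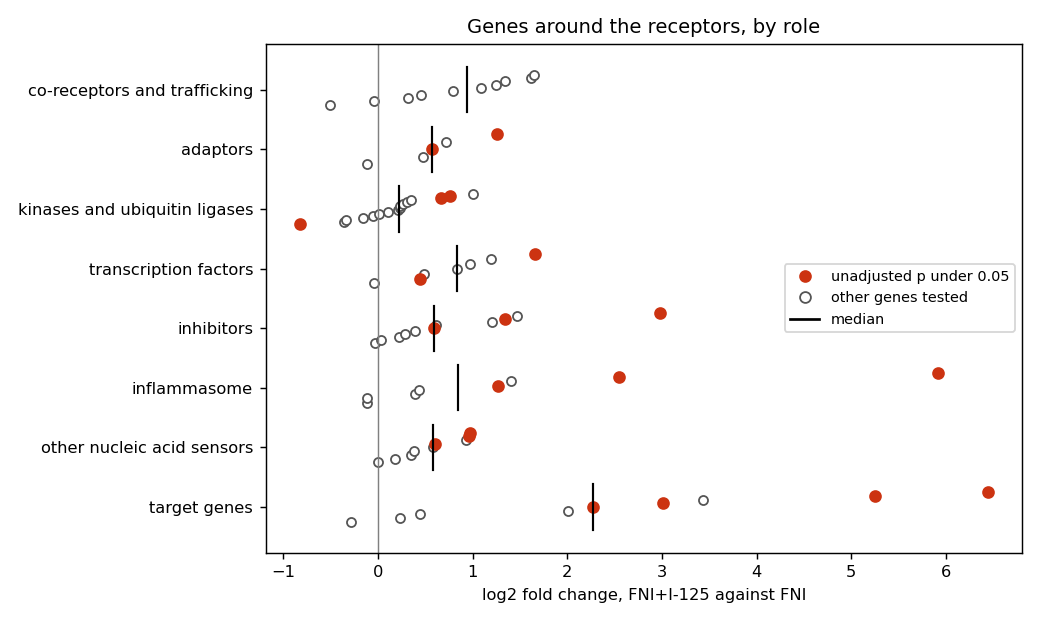
Log2 fold change of FNI+I-125 over FNI of each tested gene in the 8 pathway lists, red where the unadjusted p was under 0.05, with a bar at the median of each list. The median of the target genes, 2.27, is the highest of the lists, and PELI2 is the red point below 0.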

How the data were processed

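RNA-seq of 6 rabbit facial nerve libraries, 3 FNI and 3 FNI+I-125, was analysed from the raw counts per gene that the authors deposited, 1 file per library, without normalization. Per the labels, mRNA was prepared with a stranded kit and sequenced in paired ends, and the submitters' processing notes name HISAT2 and the genome build OryCun2.0. The annotation, the counting program, its strand setting and its handling of reads with several matches are not given in the sources used here. Of 2992 LOC identifiers, 542 were given symbols through RefSeq's table for mOryCun1.1, which was used for names and neighbours only, and levels per gene length were not computed.

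Counts were tested in R 4.3.3 with edgeR 4.0.16 (glmQLFit, glmQLFTest, TMM scaling, filterByExpr with a minimum count of 10), two-sided, with Benjamini-Hochberg adjustment. The biological coefficient of variation was 43%, and the median prior degrees of freedom were 2.01. Alternatives used DESeq2 1.42.0, limma 3.58.1 and 1 library left out. The procedure was tested on simulated data. The members, the pathway lists and the marker lists were chosen with earlier results of these data known. Named pathway genes were the 3 of each list with the smallest p, plus direct partners of the receptors and PTGS2, the median of the target genes. Named markers were the 2 of highest mean CPM in the macrophage, neutrophil and Schwann cell lists, with the other lists given as sums. FLT3, ZBTB46, XCR1, CCR7 and BATF3 of the dendritic cell list were named as well. Some markers were left out of the Schwann cell and B cell lists and are not reported here.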

Additional observations from a re-analysis of the deposited data

How the results depend on the processing

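Under the alternatives tried, 125 of 127 single-receptor fold changes kept their sign and 0 came under an adjusted p of 0.05. The 2 that turned were TLR3 without FNI replicate 1 (-0.01) and without FNI+I-125 replicate 2 (-0.30). The count of receptors past an unadjusted p of 0.05 was 1 and became 2 with limma-voom, 2 with library size only, 3 with the replicate block, and 0 with an absolute log2 fold change of at least 1.5. Leaving out 1 library at a time, it ran from 0 to 2, the log2 fold change of TLR3 from -0.30 to 0.49, the sensors' median from -0.025 to 0.41, the difference of the class medians from 0.08 to 0.77, and the count of pathway genes from 10, without FNI+I-125 replicate 1, to 24. With DESeq2 that count was 33 against 20. Over all genes, calls at an unadjusted p under 0.05 numbered 2375 in the main fit and 3252 with DESeq2. They numbered 1392 without FNI+I-125 replicate 1 and 2231 without FNI replicate 2. With limma-voom, library size only and the replicate block they were 2162, 2226 and 2220. The cause of these changes in count was not tested. Same-numbered libraries did not deviate together (correlations 0.05, -0.19 and -0.14, and 0 of 6 libraries correlated best with its own number), so the replicate block, which put TLR1, TLR4 and TLR9 under the unadjusted threshold and TLR6 above it (p = 0.0773), pairs libraries by number alone. With 3 libraries a group, permutation p-values cannot go below 0.1, and a receptor with few counts, such as TLR10, is limited by counting error as well.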

Other observations

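Ratios between receptors need no scaling between libraries. Those without overlap between the groups were TLR1, TLR2 and TLR4 to TLR5, and TLR5 to TLR10. The share of other gene pairs without overlap was not computed. These ratios were picked from 28 pairs after the values were seen and carry no test. The log2 ratio of TLR4 to TLR5 was 1.08, 1.73 and 1.93 in FNI, and 2.84, 3.62 and 2.08 in FNI+I-125. That of TLR2 to TLR5 was -0.54, 0.12 and -0.26 in FNI, and 0.66, 2.12 and 0.73 in FNI+I-125. All the ratios without overlap stand on TLR5, whose own values overlapped between the groups. Of the dendritic cell markers, the growth factor receptor FLT3 had 5.21, 10.1 and 2.66 CPM in FNI, and 9.15, 35.7 and 13.6 CPM in FNI+I-125, with overlap. The transcription factor ZBTB46 went the other way, with 8.26, 12.2 and 11.1 CPM in FNI, and 7.78, 6.27 and 6.28 CPM in FNI+I-125, without overlap. Over all genes tested, 12.3% were lower in FNI+I-125 without overlap and 14.8% higher. XCR1 and CCR7 of the same list were higher in FNI+I-125 without overlap. Their log2 fold changes were 2.38 (SE 0.86, adjusted p = 0.280) and 1.96 (SE 0.85, adjusted p = 0.306) in edgeR. XCR1 held only 6, 19 and 4 counts in FNI, and CCR7 24, 74 and 8. BATF3, also of this list, was not tested. It held 5, 4 and 14 counts in FNI, and 0, 4 and 7 in FNI+I-125, with overlap and a lower mean in FNI+I-125.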
